A study of Mus musculus with 12 samples.

Results

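The aryl hydrocarbon receptor (AhR) complex was followed through 6 listed genes in mouse liver. They were the receptor Ahr, its nuclear partner Arnt, its repressor Ahrr, the chaperones Hsp90ab1 and Ptges3, and Hif1a, another partner of ARNT. A gene was taken as the probe set that carried its symbol and no other. Such a probe set was found for 5 of the 6 genes, 1 for each, among 14860 genes identified in this way. No probe set carried the symbol Hsp90ab1, so that gene was not analysed here.

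The values came from Affymetrix Mouse Exon 1.0 ST arrays, 1 for each liver, in 4 groups of 3 that the labels number as biological replicates. All mice were 8 weeks old and of the mixed strain background C57BL/6;129Sv. The groups were Tiparp +/+ (wild-type) mice given corn oil, Tiparp +/+ mice given the dioxin TCDD, Tiparp -/- (knockout) mice given corn oil, and Tiparp -/- mice given TCDD. TCDD is a potent and persistent ligand of the AhR, and it was injected intraperitoneally at 30 µg per kg of body weight. The labels name corn oil as the treatment of the control mice. The labels do not give the time between dose and collection, the sex, or how the Tiparp allele was made. The parental strains are known to carry different Ahr alleles, and the labels do not give the allele of each mouse.

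In the absence of a ligand, the AhR is held in the cytosol by HSP90, its co-chaperone p23 (the product of Ptges3) and further co-chaperones. A bound ligand sends it to the nucleus, where it pairs with ARNT and binds xenobiotic response elements at genes such as Cyp1a1, Ahrr and Tiparp. AHRR competes with the receptor for ARNT, and TIPARP is a mono-ADP-ribosyltransferase that represses the receptor. ARNT also pairs with HIF-1α, the product of Hif1a, which is stabilised at low oxygen and binds hypoxia response elements.

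The start regions of Ahrr and Arnt are shown first, because Ahrr is a known target of the receptor and the measured member with called differences, while Arnt is its partner. The RefSeq table of build GRCm38.p6 held such a window for 4 of the 6 genes, Ahrr, Arnt, Ptges3 and Hif1a. Each window runs from 250 bases before to 50 bases after a start, and capitals mark GCGTG, the core of the xenobiotic response element. The Ahrr window is chr13:74292282-74292581 on the minus strand, and the Arnt window is chr3:95434140-95434439 on the plus strand. Both are written 5′ to 3′ on the strand of the gene.
Ahrr: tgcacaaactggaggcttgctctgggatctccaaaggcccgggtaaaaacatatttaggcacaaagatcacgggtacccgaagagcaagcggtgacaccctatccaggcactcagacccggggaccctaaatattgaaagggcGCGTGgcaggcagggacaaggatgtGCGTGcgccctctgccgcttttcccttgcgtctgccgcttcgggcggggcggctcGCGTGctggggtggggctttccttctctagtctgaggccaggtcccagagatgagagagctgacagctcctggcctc
Arnt: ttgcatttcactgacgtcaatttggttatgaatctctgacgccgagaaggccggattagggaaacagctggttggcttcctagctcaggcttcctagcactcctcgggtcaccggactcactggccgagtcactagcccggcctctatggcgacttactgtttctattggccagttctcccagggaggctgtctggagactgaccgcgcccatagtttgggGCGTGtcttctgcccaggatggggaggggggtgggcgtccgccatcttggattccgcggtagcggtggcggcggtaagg

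Searched on both strands, the GCGTG core occurred 3 times in the Ahrr window, starting at positions -107, -82 and -27 from the start, all on the strand of the gene. It occurred once in the Arnt window, at -29, and 2 times in the Ptges3 window, at -213 and on the opposite strand at -21. The Hif1a window, chr12:73907617-73907916 on the plus strand, held 0 matches. It lies inside the RefSeq span of the gene, which begins at 73901324, so its positions are not counted from the outermost start. The RefSeq span of Arnt begins at 95434367, also before the start used for the Arnt window. Of all 32851 windows in the table, 32.4% held at least 1 match, 11.1% at least 2 and 3.91% at least 3. The core of the hypoxia response element, ACGTG, occurred 3 times in the Hif1a window and 0 times in the other 3 windows. Of all windows, 19.6% held at least 1 and 1.73% at least 3. A pair of the Hif1a matches lies on opposite strands of a single CACGTG, the E-box palindrome, which 7.15% of windows held. The windows were rich in G and C, at 60.3% for Ahrr, 59.3% for Arnt, 73.7% for Ptges3 and 69.3% for Hif1a, against a median of 52.7% over all windows. These matches describe letters in the reference and show no binding in these livers.

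**Figure D1:**
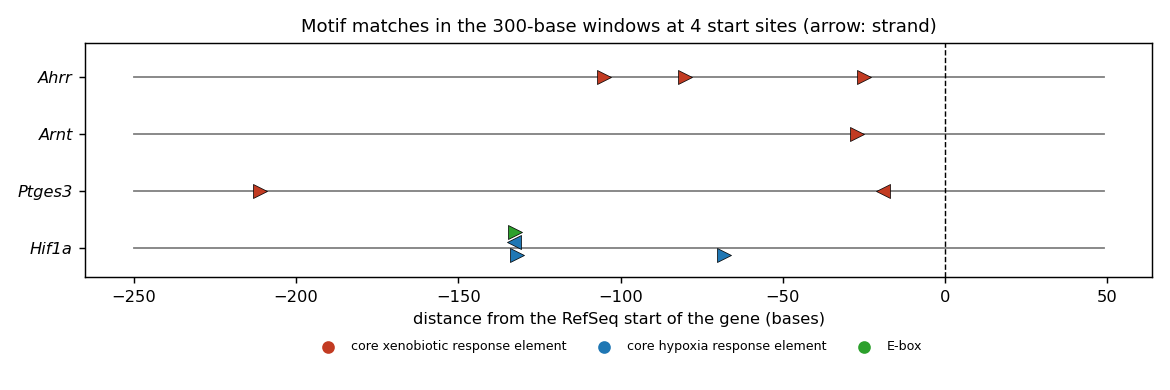
Positions of motif matches in the 300-base windows of 4 genes, in bases from the RefSeq start used for each window (dashed line). Arrows point along the strand of the match, and colours name the motif. Ahrr holds 3 cores of the xenobiotic response element, while Hif1a holds 3 cores of the hypoxia response element and 0 of the xenobiotic one.

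The deposited values are log2 RMA expression values, so a difference of 1 is a doubling, and levels are compared only within a probe set. Over the 5 comparisons limma was fitted to all 23332 probe sets, and a gene was called where its adjusted p was below 0.05. Array medians lay between 6.91 and 7.00. On the main component of variation the knockout livers given corn oil stood apart, with scores of 45.8, 36.7 and 17.2. At the other end knockout TCDD replicates 1 and 3 scored -30.5 and -22.4, while replicate 2, at -9.24, lay within the wild-type range. Wild-type arrays lay between -11.7 and 7.99, and the component carried 23.5% of the variance. The TCDD differences of knockout mice are therefore also given against wild-type corn oil livers, for the members and the called genes of the lists. The genotype difference under corn oil and the difference between TCDD effects need the knockout corn oil arrays and have no such value. On the first replicate of the knockout TCDD group the 75th percentile was 8.48, against 8.56 to 8.68 on the other arrays. Tiparp lay between 9.91 and 10.84 in wild-type TCDD mice and between 6.70 and 6.91 in knockout TCDD mice, in the direction of the labels. Under corn oil it lay between 7.33 and 7.42 in wild-type and between 5.58 and 7.10 in knockout mice. That difference had the same direction and was not called (-1.09, limma adjusted p = 0.12). The labels do not say which part of Tiparp was deleted or probed. Albumin, transthyretin and tyrosine aminotransferase, the measured hepatocyte markers, averaged 13.5 to 13.79 per array, and the mean of each was above that of at least 99.5% of probe sets.

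Ahrr, the repressor, was the measured member with the highest change after TCDD, and its rise was called in knockout mice. In wild-type mice given corn oil its 3 arrays read 5.90, 5.88 and 5.95 (5.91 ± 0.04, SD, n = 3). Wild-type mice given TCDD read 6.26, 6.57 and 6.44 (6.42 ± 0.16, SD, n = 3). These groups did not overlap, and the lowest TCDD array lay above the highest corn oil array. Knockout mice given corn oil read 6.00, 6.02 and 6.03 (6.02 ± 0.02, SD, n = 3). Knockout mice given TCDD read 7.63, 8.97 and 9.01 (8.54 ± 0.79, SD, n = 3). All 3 arrays of the last group lay above all 9 others, with replicate 1 well below the other 2.

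TCDD raised Ahrr by 2.52 ± 0.30 (SE) on the log2 scale in knockout mice, which is 5.74-fold (95% interval of the log2 change 1.86 to 3.18, limma adjusted p = 0.00153). The change ranked 26th by size among all 23332 probe sets. In wild-type mice the difference was 0.51 ± 0.30 (interval -0.14 to 1.17, adjusted p = 0.781) and was not called. Under TCDD, knockout livers exceeded wild-type livers by 2.11 ± 0.30, or 4.33-fold (interval 1.46 to 2.77, adjusted p = 0.0202). Under corn oil the knockout arrays also lay above the wild-type ones, by 0.11 (interval -0.55 to 0.76, adjusted p = 0.897). The difference between the TCDD effects of the genotypes was 2.01 ± 0.42 (interval 1.08 to 2.93), and its adjusted p of 0.0841 missed the threshold.

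In order of level, Ahrr was lowest in wild-type corn oil livers, then knockout corn oil, then wild-type TCDD, then knockout TCDD. Of the neighbours in that order, the corn oil groups differed by 0.11 without a call, and the TCDD groups differed with one. The wild-type TCDD and knockout corn oil groups differ in 2 factors and were not compared. The spread of Ahrr within groups was uneven. Its SD in knockout TCDD mice was larger than that of 98.2% of probe sets in that group, and its SD in knockout corn oil mice exceeded that of 0.883%. Because the fit pools this spread, the wild-type difference had an SE of 0.083 without replicate 1 of the knockout TCDD group (adjusted p = 0.0832), and of 0.098 when only wild-type arrays were fitted (adjusted p = 0.288). Without that same replicate the difference between the TCDD effects was 2.46 (adjusted p = 0.000198).

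The rise of Ahrr in knockout mice kept its call whichever single array was left out, at 2.28 to 2.97. It was 2.97 without knockout TCDD replicate 1 (adjusted p = 2.53e-06) and 2.28 without replicate 3 (adjusted p = 0.00807). It was 2.63 (adjusted p = 0.00147) with wild-type corn oil livers as control in place of the knockout ones, an alternative chosen after seeing the data. With only the 6 knockout arrays in the fit the value was 2.52 and its adjusted p 0.0529. The call of knockout over wild-type under TCDD was lost in 5 of the 12 fits with 1 array removed. Those fits lacked wild-type TCDD replicate 1, 2 or 3, or knockout TCDD replicate 2 or 3, with adjusted p from 0.0663 to 0.0925.

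**Figure D2:**
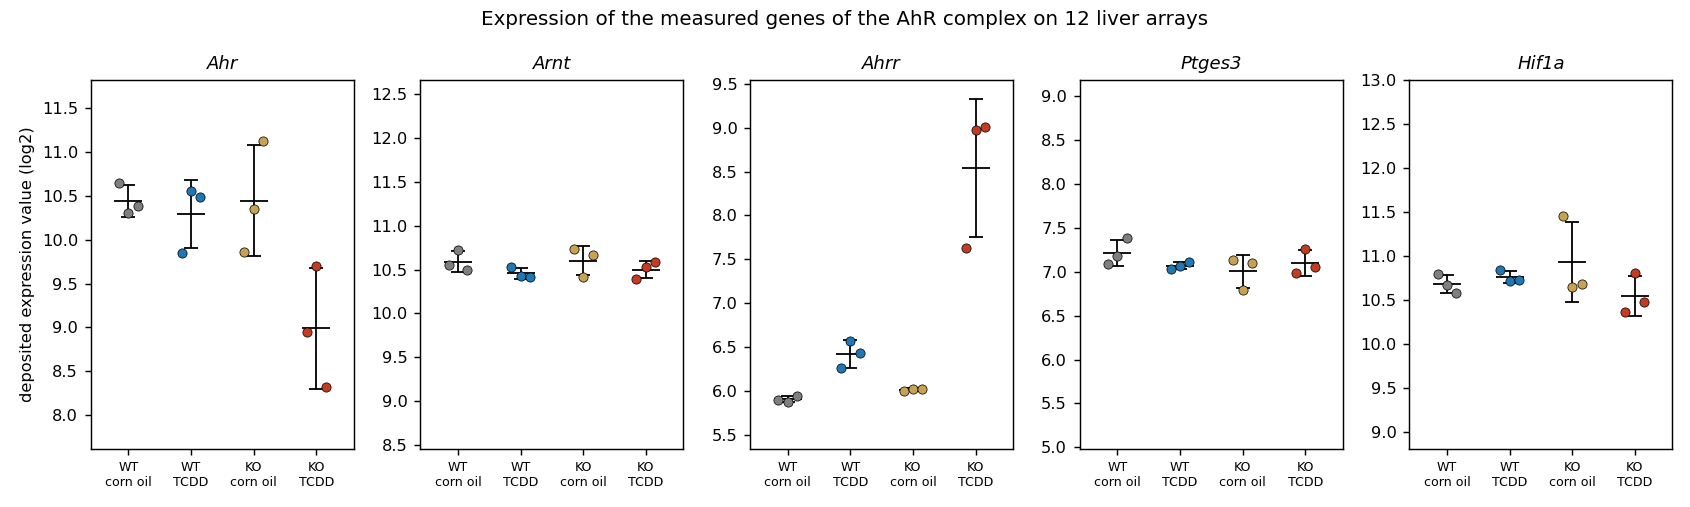
Deposited log2 expression of the 5 measured genes on each of the 12 arrays, with points for arrays and bars for the mean ± SD of 3 arrays. Each panel has its own range but the same span, WT is wild-type and KO is knockout. Ahrr stands apart upward and Ahr downward in knockout TCDD livers, while the groups of Arnt, Ptges3 and Hif1a overlap.

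Ahr, the receptor, read 10.64, 10.30 and 10.38 in wild-type corn oil livers (10.44 ± 0.18, SD, n = 3) and 9.85, 10.55 and 10.48 in wild-type TCDD livers (10.29 ± 0.39). Knockout corn oil livers read 9.86, 10.35 and 11.12 (10.44 ± 0.64), and knockout TCDD livers read 8.95, 9.70 and 8.32 (8.99 ± 0.69). The 3 knockout TCDD arrays were the lowest of the 12, and the other groups overlapped each other. The means of the corn oil groups were alike, wild-type TCDD followed, and knockout TCDD came last. Ahr was also among the more variable genes, since its SD in knockout corn oil and knockout TCDD mice exceeded that of 95.5% and 97.2% of probe sets. The part of the strain alleles in this spread was not tested.

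In knockout mice Ahr was lower after TCDD by a log2 difference of -1.45 ± 0.38 (SE), a 2.74-fold difference (95% interval -2.29 to -0.62), with an adjusted p of 0.0522 by limma, just outside the threshold. The wild-type difference was -0.15 (interval -0.98 to 0.69, adjusted p = 0.97). Under TCDD, knockout minus wild-type was -1.30 (interval -2.14 to -0.47, adjusted p = 0.239) with no overlap between the groups. Under corn oil it was 0.0033 (interval -0.83 to 0.84, adjusted p = 1). The difference between the TCDD effects was -1.31 ± 0.53 (interval -2.49 to -0.12, adjusted p = 0.293). The knockout value gained a call when knockout corn oil replicate 1 was left out (-1.75, adjusted p = 0.0456) or knockout TCDD replicate 2 was (-1.81, adjusted p = 0.026). Without knockout TCDD replicate 1 it was -1.43 (adjusted p = 0.14), and without replicate 3 it was -1.12 (adjusted p = 0.159). It was -1.45 (adjusted p = 0.0839) with wild-type corn oil livers as control.

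Fewer cells of a type and less RNA per cell cannot be told apart in whole liver. Of the endothelial markers, all 8 of 8 listed were measured. With TCDD all 8 had lower means in both genotypes, 0 of them called in wild-type and 4 in knockout mice. Their mean level was 9.64 to 9.80 in knockout corn oil livers and 9.14 to 9.34 in knockout TCDD livers. In wild-type mice it was 9.38 to 9.59 under corn oil and 9.13 to 9.20 under TCDD. The lowest reading of any endothelial marker was 7.75, for Tek. The 6 measured stellate cell markers averaged 7.93 to 8.24 in knockout corn oil livers and 8.23 to 8.32 in knockout TCDD livers. With TCDD in knockout mice 4 of them had higher means (1 called) and 2 had lower means (0 called). In wild-type mice all 6 had lower means with TCDD (0 called). Of 7 measured macrophage and Kupffer cell markers, 7 had lower means with TCDD in wild-type mice (0 called) and 5 in knockout mice (1 called lower). All 7 had higher means in knockout than in wild-type mice under corn oil (1 called) and under TCDD (0 called). Their mean level was 8.41 to 9.18 in wild-type TCDD livers and 9.09 to 9.25 in knockout TCDD livers. The part of these cell types in the values of Ahr and Ahrr was not tested.

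Arnt, the partner of both the receptor and the HIF proteins, gave overlapping readings in all groups. It read 10.55, 10.72 and 10.50 in wild-type corn oil livers, 10.53, 10.43 and 10.41 in wild-type TCDD livers, 10.73, 10.41 and 10.66 in knockout corn oil livers, and 10.39, 10.53 and 10.58 in knockout TCDD livers. The means of the 4 groups ran from 10.46 to 10.60 with SDs of 0.06 to 0.17. The log2 difference with TCDD was -0.13 in wild-type (95% interval -0.36 to 0.09, limma adjusted p = 0.848) and -0.10 in knockout mice (interval -0.33 to 0.13, adjusted p = 0.625). Both intervals lie below that of Ahrr in knockout mice. Against wild-type corn oil livers the knockout TCDD value was -0.09 (adjusted p = 0.707).

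Ptges3, which encodes the co-chaperone p23, read 7.09, 7.18 and 7.38 in wild-type corn oil livers and 7.03, 7.06 and 7.11 in wild-type TCDD livers. In knockout mice it read 7.13, 6.79 and 7.10 under corn oil and 6.98, 7.26 and 7.05 under TCDD. Every group overlapped the next, with group means from 7.01 to 7.22. Its TCDD differences were -0.15 in wild-type (interval -0.41 to 0.11, adjusted p = 0.856) and 0.09 in knockout mice (interval -0.17 to 0.35, adjusted p = 0.713). Against wild-type corn oil livers the latter was -0.12 (adjusted p = 0.657).

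Hif1a, which competes for ARNT as the subunit of another heterodimer, read 10.79, 10.67 and 10.58 in wild-type corn oil livers and 10.84, 10.71 and 10.73 in wild-type TCDD livers. It read 11.45, 10.65 and 10.68 in knockout corn oil livers and 10.36, 10.80 and 10.48 in knockout TCDD livers. Replicate 1 of the knockout corn oil group stood above the other 11 arrays, and the groups overlapped. The TCDD difference was 0.08 in wild-type (interval -0.36 to 0.52, adjusted p = 0.97) and -0.38 in knockout mice (interval -0.82 to 0.06, adjusted p = 0.295). Without that replicate the knockout difference was -0.12 (adjusted p = 0.66). With wild-type corn oil livers as control it was -0.13 (adjusted p = 0.783).

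The count of called members is set here beside the share of all probe sets, as a description of 5 genes. With TCDD in wild-type mice 0 of 5 members were called, where 0.116% of all probe sets were, and 1 of 5 had groups that did not overlap, against 13.7%. With TCDD in knockout mice 1 of 5 was called, against 5.58%, and 2 of 5 did not overlap, against 23.5%. For knockout against wild-type under corn oil the counts were 0 of 5, against 1.96%, and 1 of 5 without overlap, against 21.8%. Under TCDD they were 1 of 5, against 0.24%, and 2 of 5 without overlap, against 18.3%. For the difference between the TCDD effects 0 of 5 were called, against 0.159%. Ahrr is the member behind each call, and Ahrr and Ahr are the members without overlap, Ahr in both comparisons that involve knockout TCDD mice. With an unadjusted p below 0.05 the wild-type TCDD comparison would hold 1698 probe sets, where limma called 27.

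**Figure D3:**
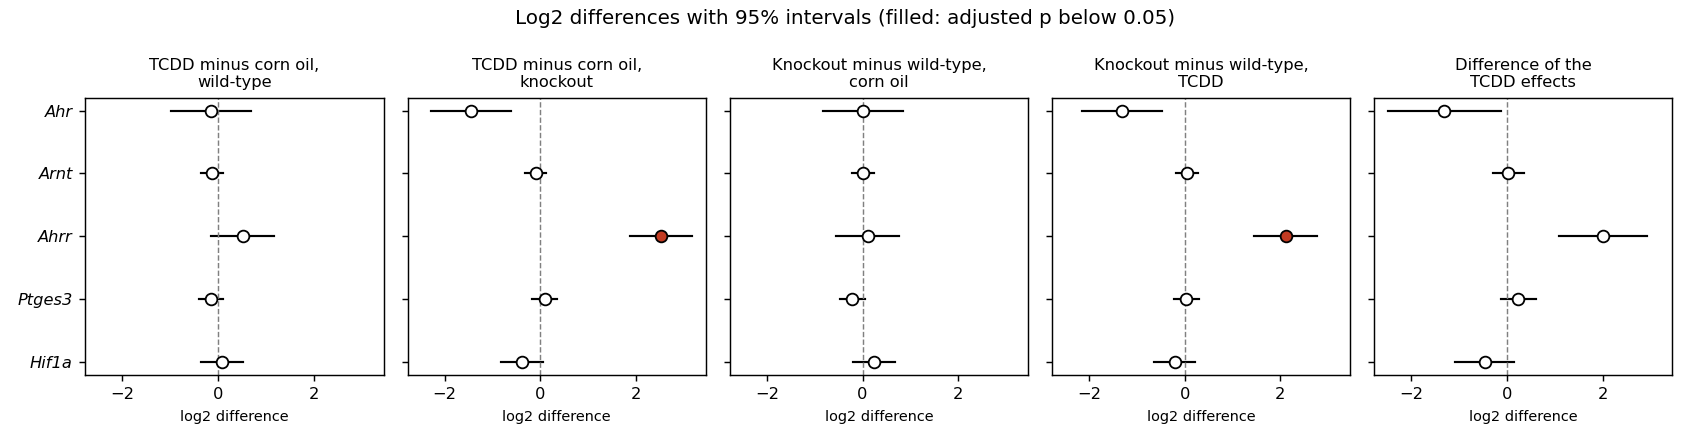
Log2 differences of the 5 genes in the 5 comparisons, with 95% intervals from limma, filled where the adjusted p is below 0.05. The filled points are Ahrr with TCDD in knockout mice (2.52) and in knockout over wild-type mice under TCDD (2.11), and every interval of Arnt and Ptges3 includes 0.

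The surroundings of the complex were read from 5 lists of related genes, of which 65 of 76 genes were measured. With TCDD in wild-type mice 0 genes of any list were called, and the list medians lay between -0.01 and 0.04, beside 0.01 over all probe sets. In knockout mice 1 of 14 chaperones and co-chaperones was called lower, 1 of 13 coactivators, corepressors and other nuclear partners higher, 1 of 12 other bHLH-PAS factors lower and 1 of 16 HIF target genes higher, with 0 of 10 oxygen sensing genes. Together these were 4 of 65 genes, a share near the 5.58% of all probe sets called in that comparison. The medians in that order of lists were -0.10, -0.07, 0.07, 0.19 and -0.22, beside -0.05 over all probe sets. For knockout against wild-type under corn oil 2 of 65 genes were called, both co-chaperones, beside 1.96% of all probe sets. Under TCDD, and for the difference between the TCDD effects, 0 genes of any list were called.

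Fkbp5, an HSP90 co-chaperone and a well known target of the glucocorticoid receptor, was the chaperone called lower with TCDD in knockout mice. It read 10.63, 10.78 and 9.50 under corn oil and 7.71, 8.09 and 7.52 under TCDD there, and 7.78 to 8.90 on the 6 wild-type arrays. The knockout corn oil arrays were the 3 highest of the 12. Its log2 change with TCDD in knockout mice was -2.53 ± 0.37 (SE, limma adjusted p = 0.0049), and knockout minus wild-type under corn oil was 2.04 ± 0.37 (adjusted p = 0.0369). With wild-type corn oil livers as control the TCDD difference was -0.49 (adjusted p = 0.549). Fkbp4, a related co-chaperone of steroid receptors, was lower in knockout than wild-type mice under corn oil by a log2 difference of -0.87 ± 0.17 (adjusted p = 0.042), at 8.82, 9.33 and 9.51 against 10.06, 10.19 and 10.02. These groups did not overlap, as for 21.8% of all probe sets in that comparison. The call of Fkbp4 stayed in 1 of 12 fits with 1 array removed, and that of Fkbp5 under corn oil in 3 of 12. Hsp90aa1, the other cytosolic HSP90 gene, was chosen after its values were seen. Under corn oil it read 4.93, 5.04 and 4.69 in wild-type and 5.53, 6.19 and 5.51 in knockout mice. The groups did not overlap either, and the difference was not called (0.86 ± 0.23, adjusted p = 0.088). All Hsp90aa1 readings lay below the array medians of 6.91 to 7.00.

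Nrip1, which encodes the nuclear receptor corepressor RIP140, read 7.88, 8.15 and 8.32 in knockout corn oil livers and 8.80, 8.84 and 8.79 in knockout TCDD livers. The latter were the 3 highest of the 12 arrays, since wild-type livers read 8.04 to 8.37. Nrip1 rose by 0.69 ± 0.12 (adjusted p = 0.0133), and by 0.57 against wild-type corn oil livers (adjusted p = 0.0461). Epas1, which encodes HIF-2α and is high in endothelium, read 11.56, 11.35 and 11.40 in knockout corn oil livers and 10.98, 10.86 and 10.75 in knockout TCDD livers. It fell by 0.57 ± 0.09 on the log2 scale (adjusted p = 0.0065), and by 0.19 with wild-type corn oil livers as control (adjusted p = 0.335). In wild-type mice, where all 8 endothelial markers had lower means with TCDD, the Epas1 difference was -0.02 (adjusted p = 0.987). The part of endothelium in the Epas1 values was not tested. Ankrd37, a HIF target of unsettled function, read 6.29, 6.42 and 6.27 under corn oil and 6.71, 6.74 and 6.64 under TCDD in knockout mice, and rose by 0.37 ± 0.08 (adjusted p = 0.0254), or by 0.46 against wild-type corn oil livers (adjusted p = 0.0152). Its groups did not overlap, as for 23.5% of all probe sets. The call of Ankrd37 was lost without knockout corn oil replicate 1 and without each knockout TCDD replicate (adjusted p from 0.0604 to 0.0736). With only the knockout arrays in the fit, Nrip1, Epas1 and Ankrd37 all lost their calls (adjusted p 0.0813, 0.0802 and 0.121).

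**Figure D4:**
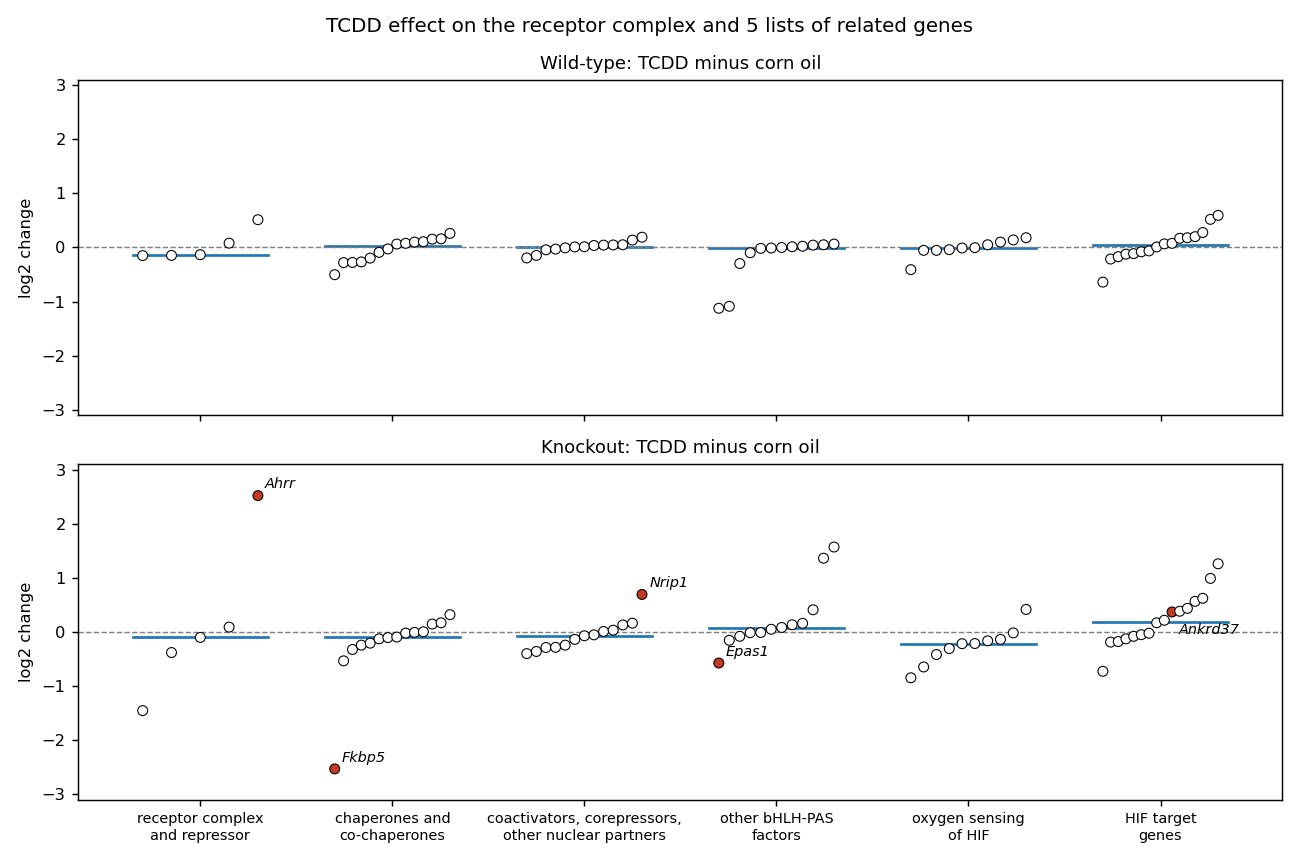
Log2 change with TCDD for the 5 measured genes of the complex and the measured genes of 5 lists, in wild-type (top) and knockout mice (bottom), sorted within each list. Bars are medians, and filled points have an adjusted p below 0.05. In wild-type mice 0 points are filled, and in knockout mice Ahrr, Fkbp5, Nrip1, Epas1 and Ankrd37 are.

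The genes whose profile was most like that of each member were taken by Pearson's r over the 12 arrays among 14859 other genes. These correlations share their arrays and group means, and they are given as descriptions. For Ahrr they were Cyp1b1, a cytochrome P450 induced through the AhR (r = 0.992), Ecel1, an endothelin-converting enzyme-like peptidase (r = 0.988), and Nrg1, the growth factor neuregulin (r = 0.987). For deviations from the group means, r was 0.955, 0.880 and 0.927. In knockout TCDD mice Cyp1b1 read 8.73, 10.95 and 10.97, Ecel1 read 9.80, 10.70 and 11.22, and Nrg1 read 8.05, 9.41 and 9.45. Replicate 1 was the lowest of its group for all 3 genes, as it was for Ahrr. The choice by r over these same arrays favours such genes, so this match is no separate result. Without the knockout TCDD arrays r was 0.912 for Cyp1b1, 0.955 for Ecel1 and 0.572 for Nrg1.

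TCDD raised Cyp1b1 by 3.79 on the log2 scale (limma adjusted p = 0.00277), Ecel1 by 4.14 (adjusted p = 0.000115) and Nrg1 by 2.14 (adjusted p = 0.00503) in knockout mice. In wild-type mice the same values were 1.06, 0.84 and 0.24, none of them called. These genes were chosen by likeness to Ahrr on the same arrays, so their rises and p-values add no separate evidence. Cyp1a1, the most used marker of the activated receptor, had another pattern. Under corn oil it read 5.47, 6.85 and 6.64 in wild-type and 8.84, 8.07 and 8.12 in knockout mice, without overlap, and was higher in knockout mice by 2.02 (adjusted p = 0.0278). It read 13.19 to 13.32 in wild-type and 13.27 to 13.34 in knockout mice under TCDD, a difference of 0.07 (adjusted p = 0.958) near the top of the range of the table.

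**Figure D5:**
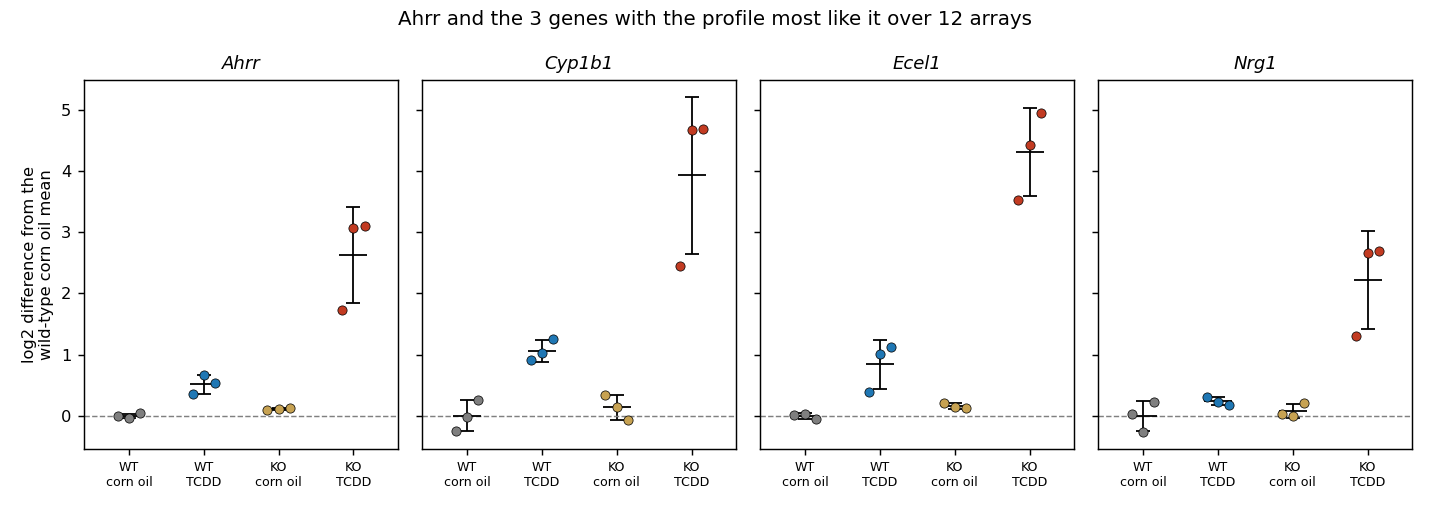
Log2 difference from the wild-type corn oil mean for Ahrr and the 3 genes most like it, with points for arrays and bars for the mean ± SD of 3 arrays. In knockout TCDD livers replicate 1 (left point) is the lowest of its group in each panel, and it still lies above all wild-type TCDD arrays. The 3 genes were chosen by their correlation with Ahrr on these same arrays.

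For Ahr the most similar profiles were those of the ubiquitin ligase gene Ube3c (r = 0.964), Anks4b (r = 0.943) and the J-domain gene Dnajc4 (r = 0.937). Ube3c read 9.24 to 9.56 over the 12 arrays, and its TCDD difference in knockout mice was -0.17 (adjusted p = 0.26). Likeness was weaker for Arnt, whose best matches were Slc35g3, Tanc1 and Gal3st3 (r = 0.864, 0.860 and 0.856). For Ptges3 they were Myo7b, Trio and Olfr342 (r = 0.874, 0.871 and 0.823). For Hif1a they were Gabpb1, Ezh2 and Wdr26 (r = 0.936, 0.925 and 0.919). Of the genes named here for Ahr, Anks4b and Dnajc4 were not called in knockout mice with TCDD either, at -0.51 (adjusted p = 0.154) and -0.25 (adjusted p = 0.0934).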

How the data were processed

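Liver RNA of 12 mice was measured on Affymetrix Mouse Exon 1.0 ST arrays. The deposited values are log2 expression values, which the authors made with RMA in Affymetrix Expression Console, per the submitters' processing notes, and the notes name the build mm9. They give no software version or probe set level. The values were used as deposited. A platform annotation gave 1 symbol to 14996 of the 23332 probe sets, several to 1019 and none to 7317. The members and gene lists were chosen with earlier results of these data known. The 4 group means were estimated together over the 12 arrays by limma 3.58.1 (R 4.3.3, with 8 residual and 2.19 prior degrees of freedom), with Benjamini-Hochberg adjustment over all probe sets in each of 5 comparisons and a threshold of 0.05. The fit was tested on simulated data. Errors marked SE come from limma and errors marked SD from 3 arrays, a number that limits precision. The p-values set a difference between groups against the spread within groups, which the fit pools over the 12 arrays. Named genes were the members, Tiparp, Cyp1a1, the called genes of each list (at most the 3 with the largest change) and the 3 genes most like each member. Hsp90aa1, Arntl, Npas2, Clock and the markers Tek, Alb, Ttr and Tat lie outside this rule and were chosen after their values were seen. Alternatives were other empirical Bayes settings, only the compared groups, a replicate block, further normalization, filters, array weights and leaving out each array. Motifs were searched in RefSeq windows of GRCm38.p6, a build other than that of the notes, and no array position was used.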

Additional observations from a re-analysis of the deposited data

How the results depend on the processing

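The rise of Ahrr with TCDD in knockout mice kept its direction under every alternative run, and missed the threshold with only the compared groups (2.52, adjusted p = 0.0529), as its knockout excess under TCDD did (2.11, adjusted p = 0.191). The difference of its TCDD effects passed with only probe sets of 1 symbol (2.01, adjusted p = 0.0461) and with array weights (2.20, adjusted p = 0.0262). The Ahr value in knockout mice passed with a trended prior, without the lowest 25% of probe sets and with 1 symbol (-1.45 in each, adjusted p from 0.0326 to 0.0457), and with array weights (-1.59, adjusted p = 0.0213). In 7 of 11 alternatives it stayed without a call, with adjusted p up to 0.181. Signs turned for small values without a call. With array weights Arnt in knockout mice was 0.016. Under corn oil knockout minus wild-type was -0.027, -0.042 and -0.037 for Ahr and -0.026, -0.035 and -0.087 for Arnt with quantile normalization, median centring and array weights. Ptges3 in knockout mice was -0.12 against wild-type corn oil arrays, chosen after seeing the data.

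Leaving out each array gave ranges of -1.81 to -1.12 for Ahr in knockout mice, 1.88 to 2.57 for Ahrr in knockout over wild-type mice under TCDD, and 1.77 to 2.46 for the difference of its TCDD effects. Values without a call ran from -0.28 to 0.075 for Ahr in wild-type mice, -0.018 to 0.15 for Ptges3 in knockout mice and -0.052 to 0.088 for Ptges3 between genotypes under TCDD. Under corn oil they ran from -0.055 to 0.11 for Arnt, -0.34 to 0.30 for Ahr and -0.015 to 0.39 for Hif1a, and the Arnt difference of TCDD effects from -0.062 to 0.10.

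Same-numbered arrays did not deviate together (r from -0.208 to 0.114, over 0.1 in 2 of 18 pairs, own number best in 11 of 36 cases). With the replicate block the Ahrr change in knockout mice was 2.52 (adjusted p = 0.00387), and no call of a member changed, while Fkbp4, Fkbp5 under corn oil and Ankrd37 lost theirs (adjusted p = 0.0855, 0.0678 and 0.0572). Calls over all probe sets in the 5 comparisons went from 27, 1303, 457, 56 and 37 to 15, 860, 0, 43 and 0. Over the alternatives other than leaving out single arrays these counts ran from 13 to 47, 184 to 2515, 0 to 1734, 0 to 176 and 0 to 693. Scaling moved the split of knockout TCDD calls from 516 higher and 787 lower to 664 and 458 with quantile normalization and 639 and 536 with median centring, and under corn oil from 288 and 169 to 212 and 219, and 195 and 212. A choice between probe sets of a member was not run, since each had 1, nor were only the compared groups for the difference of TCDD effects, which needs all 4.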

Other observations

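Among other bHLH-PAS factors, the clock genes Arntl and Npas2 gave the widest values of the list, without a call, and were chosen after their values were seen. With TCDD Arntl differed by -1.12 in wild-type (limma adjusted p = 0.782) and by 1.57 in knockout mice (adjusted p = 0.193), and Npas2 by -1.09 and 1.36. Arntl was scattered within groups. It read 9.02, 9.17 and 9.17 in wild-type corn oil livers and 8.58, 8.64 and 6.77 in wild-type TCDD livers. In knockout mice it read 8.52, 6.69 and 6.25 under corn oil and 9.13, 7.80 and 9.24 under TCDD. Under corn oil knockout minus wild-type was -1.97 for Arntl and -1.80 for Npas2 (adjusted p = 0.137 and 0.109), with no overlap between the groups, as for 21.8% of all probe sets. Clock, a partner of Arntl, was -0.74 there (adjusted p = 0.061).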
